A study of Mus musculus with 9 samples.

Results

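The 10 genes described here belong to the NOTCH pathway of the mouse: the receptors Notch1, Notch2 and Notch3, the ligands Jag1 and Jag2, the fringe enzymes Lfng and Mfng, and the target genes Hes1, Hey1 and Nrarp. They were chosen by symbol from the 55401 genes counted in the series. Of the 10, 9 were among the 15659 genes that passed the filter on low counts, and Mfng was not. Messenger RNA was sequenced from G1C7 and G2C9, which are derivatives of the mouse line NP53 labelled as TIM-3 knockouts, and from the NP53 cells named Gcontrol, labelled as wild type. NP53 is a cell line of diffuse midline glioma, a malignant glial tumour of midline brain structures, and all groups were grown in DMEM with fetal bovine serum. Each group had 3 libraries. Whether the libraries of a group stem from different cultures is not in the labels; the p-values reflect only their spread, which may be technical. Nor do the labels say whether each derivative is 1 clone, and loss of TIM-3 and other differences between the lines cannot be told apart within a comparison with Gcontrol.

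NOTCH receptors are single-pass membrane proteins that are activated by ligands of the Jagged and Delta-like families on a neighbouring cell. Binding leads to cleavage by an ADAM protease and then by gamma-secretase, and the freed intracellular domain joins the DNA-binding protein RBPJ and a Mastermind coactivator to switch on targets such as the HES and HEY repressors and Nrarp. Fringe enzymes add a sugar to the fucose on the receptor's extracellular repeats and so change which ligands it answers to. In the nervous system the pathway is known for keeping progenitor cells undifferentiated, and it is active in many gliomas.

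Libraries held between 50110129 and 56035382 reads in genes. TIM-3 is encoded by Havcr2, which had 55, 6 and 66 reads in G1C7, 39, 30 and 28 in G2C9 and 74, 58 and 60 in Gcontrol, and its transcript did not pass the test in G1C7 (log2 fold change -0.58, edgeR adjusted p = 0.586) or G2C9 (-0.85, 0.448). Reads over a whole gene do not check a small edit, so the labels were neither borne out nor contradicted by this count. Principal component 1 (43.8% of variance) placed the derivatives between -40.6 and -21.9 and Gcontrol between 68.4 and 69.1. On component 2 (24.8%) the libraries G1C7 replicate 2 and G2C9 replicate 3 lay apart, at -79.4 and -49.8 against 4.13 to 30.5 for the others. Results without these libraries are therefore also given for many of the genes below, though not for all. Of the markers of glioma and oligodendrocyte precursors, Pdgfra, Nes, Sox2 and Vim were present in all groups. Olig1 and Olig2 had 0 reads in every library, and Sox10 had at most 2 reads over a group. Cspg4, also on this list, was lower in the derivatives. It had 0.910 to 1.53 CPM (counts per 1000000 reads) in G1C7, 3.39 to 5.41 in G2C9 and 38.4 to 47.7 in Gcontrol. Markers of microglia and macrophages summed to at most 1.57 CPM, and those of T and NK cells to at most 0.122 CPM.

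In brief, the NOTCH transcripts of G2C9 differed from Gcontrol in Notch1, Hey1 and Lfng, which were all lower, and those of G1C7 in Notch2 and Hey1, which were also lower. A gene was called when its adjusted p was under 0.05 in edgeR's quasi-likelihood test with Benjamini-Hochberg adjustment over all 15659 genes. For G1C7 against Gcontrol, 2 of the 9 NOTCH genes tested were called, both lower, beside 17.5% of all genes tested (8.77% higher and 8.73% lower). For G2C9 against Gcontrol, 3 of 9 were called, all lower, beside 13.5% of all genes (6.25% higher and 7.22% lower). Between the derivatives, 2 of 9 were called, with Notch1 higher and Notch2 lower in G1C7 than in G2C9, beside 3.36% of all genes (1.71% higher and 1.65% lower). The first count, 22.2% of the tested NOTCH genes, was close to the background of its comparison; the others, 33.3% and 22.2%, were above theirs but rest on 9 genes. The comparisons with Gcontrol share its 3 libraries, so their values are given side by side. In all, 4 of the 9 genes were called somewhere and 5 were not.

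Libraries of G1C7 and Gcontrol did not overlap for 7 of the 9 genes (77.8%), beside 43.0% of all genes. The same held for 5 of 9 genes (55.6%) between G2C9 and Gcontrol, beside 43.3%, and for 5 of 9 between G1C7 and G2C9, beside 18.2%. Without both libraries that stood apart, 6 of the 9 genes were called in G1C7 (1 higher and 5 lower), beside 54.3% of all genes then tested, and 6 in G2C9, all lower, beside 53.0%. Between the derivatives 7 were then called (5 higher and 2 lower in G1C7), beside 27.3%. The median log2 fold change of the 9 genes was -0.18 in G1C7, -0.67 in G2C9 and 0.77 in G1C7 against G2C9, beside 0.016, 0.014 and 0.0053 over all genes tested.

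**Figure D1:**
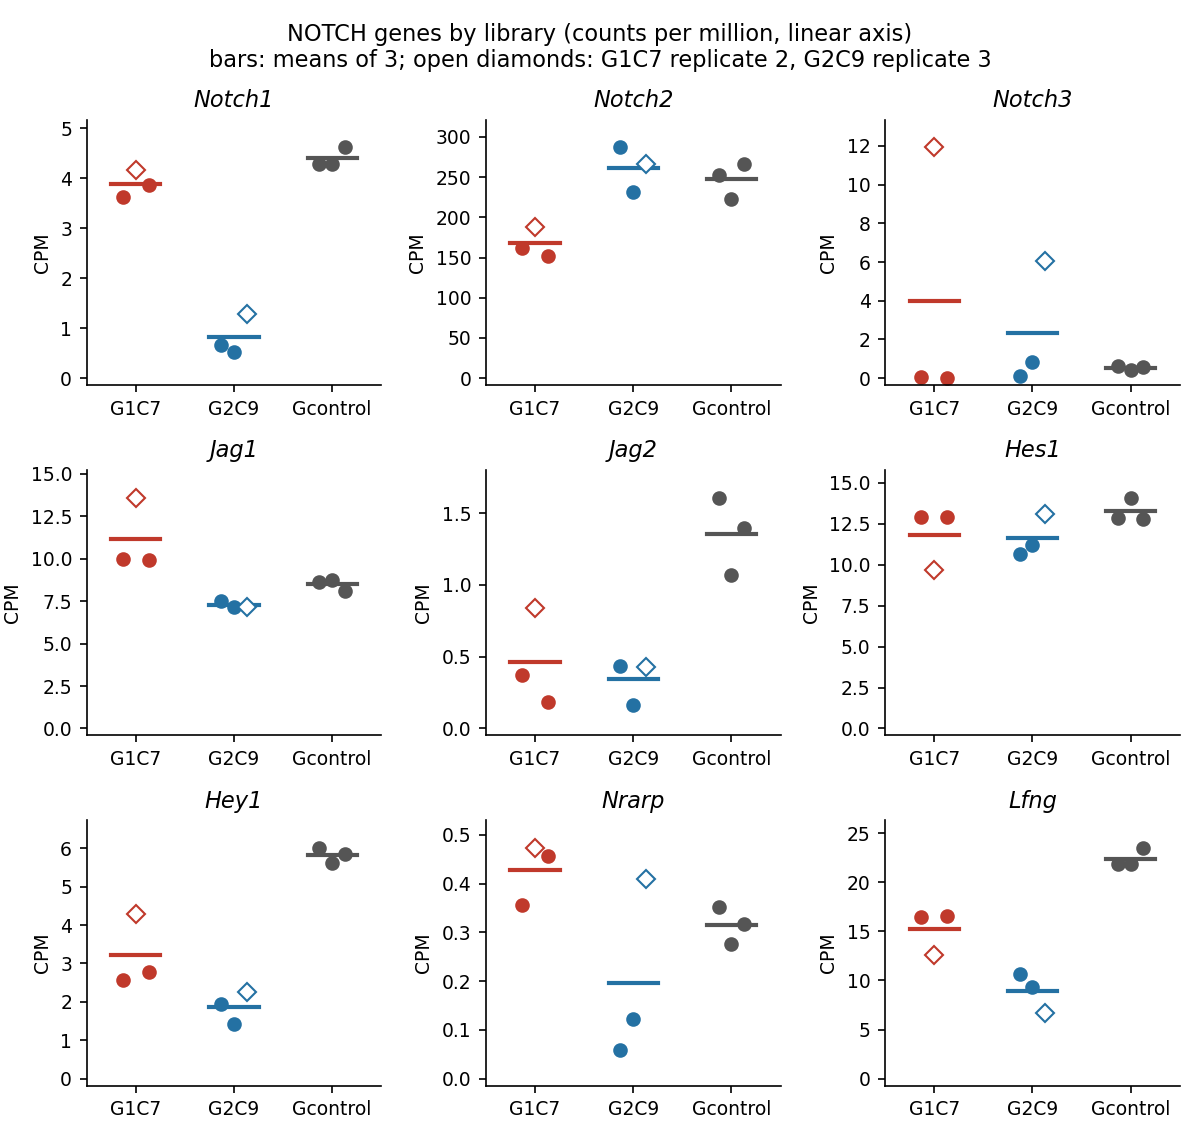
CPM (linear axes) of the 9 NOTCH genes that passed the filter, with 1 symbol per library, bars at the means of 3 libraries, and open diamonds for G1C7 replicate 2 and G2C9 replicate 3. Notch1 is low in all 3 G2C9 libraries, Notch2 in all 3 G1C7 libraries, and Hey1 and Lfng in all 6 derivative libraries, while Notch3 is high only at the open diamonds.

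**Figure D2:**
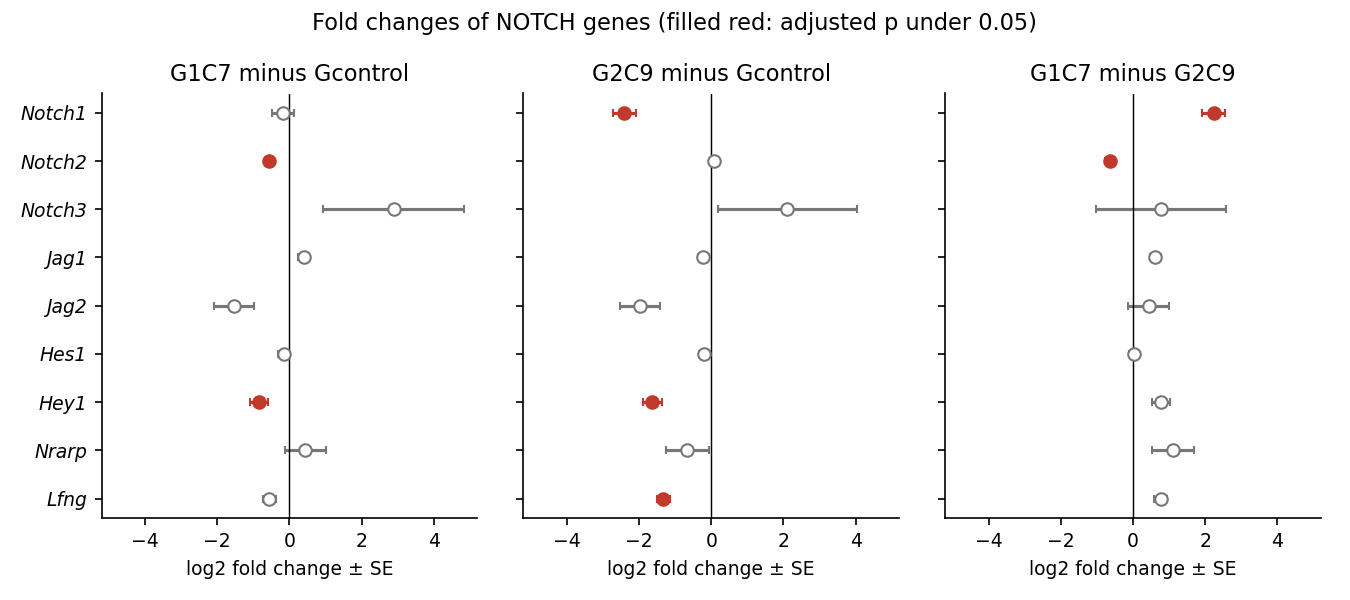
Log2 fold changes with their SE from the edgeR fit for G1C7 minus Gcontrol, G2C9 minus Gcontrol and G1C7 minus G2C9, with filled red symbols for genes at an adjusted p under 0.05. The widest errors are those of Notch3, at 1.96, 1.92 and 1.80.

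The sequences upstream of the RefSeq starts of Lfng and Notch1 are shown because both transcripts were lower in G2C9 and because NOTCH output passes through a DNA motif that can be looked for there. RefSeq windows on GRCm38.p6 matched 7 of the 10 genes, and Hes1, Hey1 and Mfng were not matched. Each window is the 250 bases before the RefSeq start, written 5′ to 3′ on the gene's strand. RefSeq and GENCODE differ in these starts: the Notch1 window lies inside the Notch1 gene as GENCODE bounds it, with 2 bases in an exon, and the Lfng window holds 21 exon bases of Lfng. Capitals mark matches on either strand to TGGGAA, the core of the RBPJ motif, whose reverse complement is TTCCCA.
Lfng (chr5:140607091-140607340, + strand): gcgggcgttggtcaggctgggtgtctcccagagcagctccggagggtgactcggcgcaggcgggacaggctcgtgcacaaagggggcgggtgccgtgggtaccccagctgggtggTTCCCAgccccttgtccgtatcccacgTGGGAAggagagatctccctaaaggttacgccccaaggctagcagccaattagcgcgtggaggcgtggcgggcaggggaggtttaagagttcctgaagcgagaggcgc
Notch1 (chr2:26503823-26504072, - strand): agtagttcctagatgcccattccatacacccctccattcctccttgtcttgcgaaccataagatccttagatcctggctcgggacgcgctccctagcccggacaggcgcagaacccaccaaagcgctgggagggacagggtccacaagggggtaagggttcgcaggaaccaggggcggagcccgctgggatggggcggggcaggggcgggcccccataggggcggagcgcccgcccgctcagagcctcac
Lfng was the only one of the 7 matched genes with TGGGAA in its window, in 2 places, which begin 135 bases before the start on the - strand and 108 bases before it on the + strand and do not overlap. The second of these is also a match to the longer GTGGGAA. Among all 32851 windows of this length, 21.6% held TGGGAA and 5.42% held GTGGGAA. A match here is a string of letters and not evidence of binding, and its absence from the Notch1 window says only that these letters are not in these 250 bases.

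Among the receptors, Notch2 made up nearly all transcripts in every group. Notch2 was called lower in G1C7 and Notch1 in G2C9, and Notch4, which is not among the 10 genes, was called lower in both. Notch2 (chr3:98013527-98150361 on GRCm38, + strand) had 162, 188 and 152 CPM in G1C7, 287, 231 and 266 CPM in G2C9 and 253, 223 and 267 CPM in Gcontrol. All 3 G1C7 libraries lay below all 6 others, and the G2C9 and Gcontrol libraries overlapped. Notch2 fell in G1C7 by 0.56 ± 0.12 (SE) on the log2 scale, 1.48-fold lower than in Gcontrol (edgeR adjusted p = 0.0145). In G2C9 its log2 fold change was 0.080 ± 0.12 (edgeR adjusted p = 0.732). The derivatives themselves differed, at -0.64 ± 0.12 for G1C7 minus G2C9 (edgeR adjusted p = 0.0246). Both calls depended on the libraries kept and on the model. The G1C7 call was lost with a term for the replicate number (edgeR adjusted p = 0.0539). It was also lost in 4 of 9 fits that left out 1 library (G1C7 replicates 1 and 3, adjusted p = 0.0502 and 0.0514, and Gcontrol replicates 1 and 3, 0.0623 and 0.0635). Over its 17 alternatives the log2 fold change ran from -0.65 to -0.50 and the adjusted p from 0.000227 to 0.0635. The call between the derivatives was lost in 7 of 17 alternatives. Among them were 5 of 9 fits that left out 1 library (G1C7 replicates 1 and 3, 0.0964 and 0.0952, G2C9 replicate 1, 0.0920, and Gcontrol replicates 1 and 3, 0.0630 and 0.0512). Another was the fit of only these groups (0.127), within a range of 5.54e-05 to 0.127. In bulk RNA, fewer cells that express a gene and less RNA per cell cannot be told apart, for this gene or any below.

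Notch2 lies on a part of chromosome 3 where most genes were lower in G1C7. Above 75 Mb, 609 other genes were tested; their median log2 fold change in G1C7 was -0.45, and 208 were called lower and 11 higher. Below 75 Mb the median of 228 genes was 0.0096, with 17 called lower and 14 higher. For G2C9 the medians were -0.091 above and -0.034 below 75 Mb. By library, the median above 75 Mb relative to the Gcontrol mean, on a log2(CPM + 1) scale, was -0.38, -0.25 and -0.40 in G1C7 and -0.099, -0.093 and -0.059 in G2C9. On the same scale Notch2 stood at -0.60, -0.39 and -0.69 in G1C7, so that replicate 2 was the least shifted in both.

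Within 10 Mb of Notch2, 302 genes had a median of -0.42 in G1C7 (quartiles -0.67 and -0.14), and 35.4% of them were lower than Notch2. Its change in G1C7 was thus inside the middle range of its neighbours. In G2C9 the same genes had a median of -0.13, and in G1C7 against G2C9 of -0.31, where 17.5% were lower than Notch2. What part of the Notch2 difference goes with its neighbours was not tested. Hey1, at 8.67 Mb on the same chromosome, lies below this stretch: 28 genes within 10 Mb of it had a median of 0.033 in G1C7 and -0.073 in G2C9. The neighbours of Notch1 within 10 Mb had medians of 0.10 and 0.086, those of Lfng -0.045 and -0.0031, and those of Jag2 -0.13 and -0.22 in G1C7 and G2C9.

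**Figure D3:**
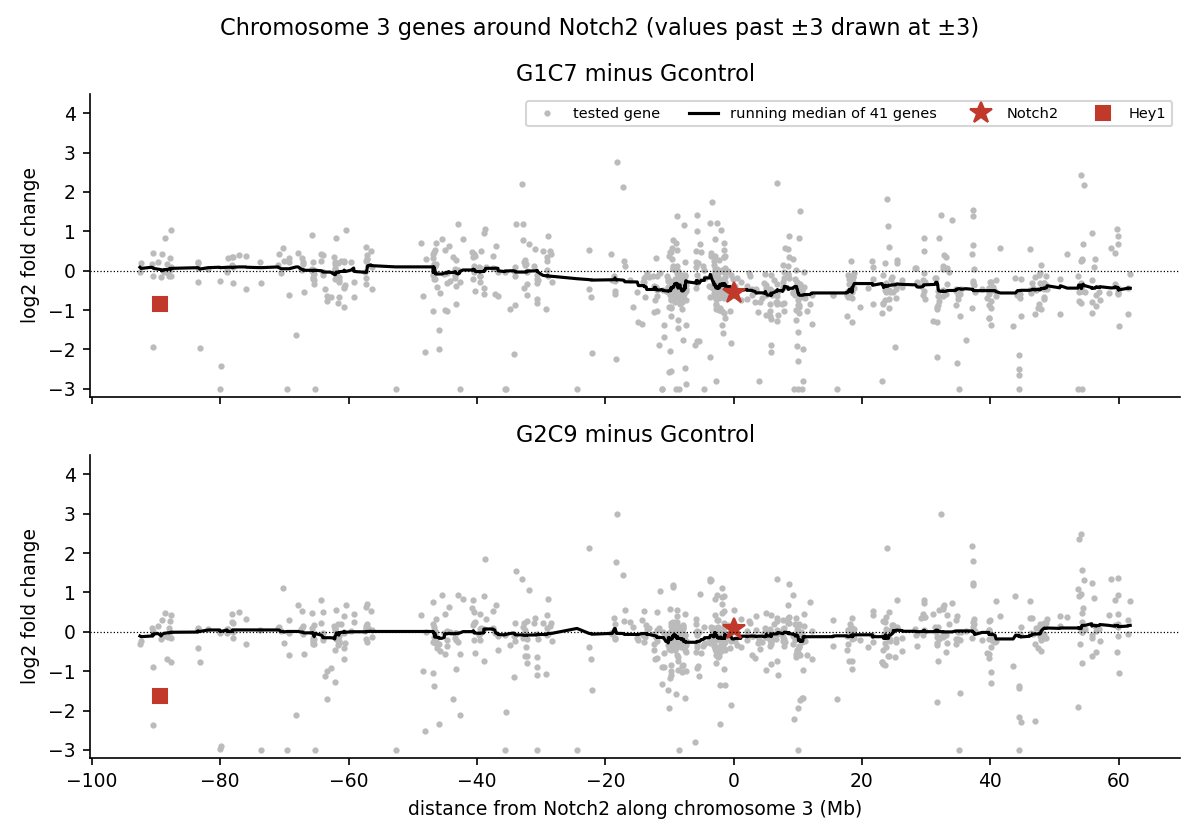
Log2 fold changes of the tested genes on chromosome 3 against their distance from Notch2 in Mb, for G1C7 minus Gcontrol (top) and G2C9 minus Gcontrol (bottom), with a running median of 41 genes and Notch2 and Hey1 marked. In G1C7 the running median lies below 0 over the stretch that holds Notch2 and near 0 around Hey1.

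Notch1 (chr2:26457903-26516663, - strand), the receptor best studied in neural progenitors, was called lower in G2C9 but not in G1C7. It had 3.63, 4.17 and 3.87 CPM in G1C7, 0.654, 0.531 and 1.29 CPM in G2C9 and 4.29, 4.29 and 4.62 CPM in Gcontrol, from 635, 125 and 726 reads over the 3 libraries of each. All G2C9 libraries lay far below all others, and the G1C7 libraries lay just under those of Gcontrol. In G2C9 Notch1 fell by 2.41 ± 0.32 on the log2 scale, 5.32-fold lower than in Gcontrol (edgeR adjusted p = 0.00205), and this call stood in all 17 alternatives. In G1C7 the log2 fold change was -0.18 ± 0.29 (edgeR adjusted p = 0.725). G1C7 was 4.70-fold higher than G2C9 (log2 fold change 2.23 ± 0.32, edgeR adjusted p = 0.00782), which stood in 9 of 9 fits that left out 1 library and missed the threshold with only these groups in the fit (0.0824, within a range of 6.47e-12 to 0.0824). Of the exon bases of Notch1, 9.76% are shared with other annotated genes, and reads there were dropped.

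Notch3, a receptor known for its role in the smooth muscle of vessels, was set by the libraries that stood apart. Its reads were 3, 655 and 0 in G1C7, 6, 40 and 310 in G2C9 and 34, 22 and 33 in Gcontrol. G1C7 replicate 2 and G2C9 replicate 3 were thus far above every other library, and the remaining G1C7 libraries were below all Gcontrol libraries. No comparison passed the test with all libraries: the log2 fold change was 2.88 ± 1.96 in G1C7 (edgeR adjusted p = 0.356) and 2.11 ± 1.92 in G2C9 (0.539). Without both libraries it was -4.17 ± 0.96 in G1C7 (edgeR adjusted p = 0.00154), which is then called lower, and -0.21 ± 0.61 in G2C9 (0.801). Between the derivatives the log2 fold change was then -3.96 ± 1.03 (edgeR adjusted p = 0.00822), called lower in G1C7 than in G2C9. These calls rest on 3 and 0 reads in G1C7, so their fitted sizes are no bound.

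Among the mural markers, Cnn1 and, at few reads, Myh11 were highest in the same libraries as Notch3. Acta2 was highest in G1C7 replicate 2 and, within G2C9, in replicate 3. Pdgfrb was lowest in G1C7 replicate 2. Cnn1 (calponin) had 0.374, 8.94 and 0.438 CPM in G1C7, 0.792, 0.939 and 4.69 CPM in G2C9 and 2.29, 2.07 and 2.17 CPM in Gcontrol. Acta2 (smooth muscle actin) had 702, 1469 and 739 CPM in G1C7 and 778, 824 and 872 CPM in G2C9, against 594, 602 and 612 CPM in Gcontrol. Pdgfrb, a growth factor receptor of pericytes, had 324, 216 and 305 CPM in G1C7 and 328, 316 and 335 CPM in G2C9, against 241, 228 and 256 CPM in Gcontrol. Myh11 had 6, 19 and 10 reads in G1C7, 2, 6 and 16 in G2C9 and 15, 10 and 4 in Gcontrol. Cnn1, Acta2 and Myh11 were thus the highest of their group in each library that stood apart. Pdgfrb was highest of its group in G2C9 replicate 3 but lowest in G1C7 replicate 2. The 6 mural markers summed to 1026 to 1694 CPM in G1C7, 1107 to 1212 CPM in G2C9 and 832 to 870 CPM in Gcontrol, with Rgs5 at 0 reads in 8 of 9 libraries and Des at 4 or fewer. Their part in the Notch3 result was not tested.

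Per length of transcript, Notch2 held 90.5% to 98.1% of the reads of the 4 receptors in G1C7, 96.4% to 99.7% in G2C9 and 96.2% to 96.9% in Gcontrol. The lowest of these shares is that of G1C7 replicate 2, where Notch3 reached 7.66%. The level summed over the receptors was 16.3 ± 2.56 RPKM (reads per kb of exon, per 1000000 reads) in G1C7 and 24.7 ± 2.67 in G2C9, against 23.7 ± 2.07 in Gcontrol (SD, n = 3 each), so the sum follows Notch2. Notch1 held 1.52% to 1.89% in G1C7 and 0.172% to 0.353% in G2C9, against 1.24% to 1.40% in Gcontrol.

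Neither Jagged ligand was called in any comparison by edgeR with all libraries and the filter used here. Other tools, other filters and fits with libraries left out gave some calls. Jag1 (chr2:137081456-137116644, - strand), the main Jagged ligand of these cells, had 9.99, 13.6 and 9.90 CPM in G1C7, 7.53, 7.16 and 7.17 CPM in G2C9 and 8.65, 8.76 and 8.11 CPM in Gcontrol. The groups did not overlap, with G1C7 above and G2C9 below Gcontrol. Its log2 fold change was 0.39 ± 0.15 in G1C7 (edgeR adjusted p = 0.110) and -0.22 ± 0.15 in G2C9 (0.386). Without both libraries that stood apart, Jag1 was called higher in G1C7 (0.23 ± 0.088, edgeR adjusted p = 0.0364). Between the derivatives the log2 fold change with all libraries was 0.62 ± 0.15 (edgeR adjusted p = 0.0682). That difference was called by DESeq2 (adjusted p = 0.00284), by edgeR without G1C7 replicate 2, the highest library (0.45, adjusted p = 0.0351), and by edgeR with G1C7 replicate 2 and G2C9 replicate 3 both left out (0.00257), and its adjusted p ranged from 0.00257 to 0.263 over the alternatives.

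Jag2 (chr12:112907819-112929776, - strand) was a low transcript, with 0.374, 0.838 and 0.183 CPM in G1C7, 0.436, 0.163 and 0.430 CPM in G2C9 and 1.61, 1.07 and 1.39 CPM in Gcontrol. All 6 derivative libraries lay below all 3 Gcontrol libraries. The log2 fold change was -1.54 ± 0.55 in G1C7 (edgeR adjusted p = 0.0894) and -1.98 ± 0.56 in G2C9 (0.0511), from 76, 52 and 224 reads in G1C7, G2C9 and Gcontrol. In G1C7 it was called in 4 of 17 alternatives: DESeq2 (adjusted p = 0.0329), limma-voom (0.0397), without replicate 2 (log2 fold change -2.27, edgeR 0.0110) and with G1C7 replicate 2 and G2C9 replicate 3 both left out (edgeR 0.000129). Its adjusted p ranged up to 0.233. In G2C9 it was called in 8 of 17, among them DESeq2 (adjusted p = 0.00610), limma-voom (0.0335), edgeR with no filter (0.0440) or at 1 CPM or more in 3 libraries (0.0476), and edgeR without G1C7 replicate 2 (0.00941) and without G1C7 replicate 3 (0.0322), in a range of 0.000233 to 0.158.

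The ligands differed in their make-up, mainly through Dll1, a Delta-like ligand that is not among the 10 genes. Dll1 had 6.23, 7.45 and 6.23 CPM in G1C7, 6.08, 5.63 and 9.86 CPM in G2C9 and 2.74, 2.29 and 3.70 CPM in Gcontrol, with no overlap between derivatives and Gcontrol. It rose in G1C7 by 1.19 ± 0.27 (edgeR adjusted p = 0.0172) and in G2C9 by 1.30 ± 0.27 (0.0140) on the log2 scale, and 182 genes within 10 Mb of it had medians of 0.22 and 0.24. The calls were lost without Gcontrol replicate 1 (0.0773 and 0.0702) or replicate 2 (0.0774 and 0.0639). Of the reads of the 5 ligands per kb, Jag1 held 53.5% ± 1.32 in G1C7 and 41.7% ± 7.14 in G2C9, against 61.9% ± 5.44 in Gcontrol, and Dll1 44.3% ± 2.34 and 54.9% ± 7.67, against 29.0% ± 5.85 (SD, n = 3 each). Jag2 held 1.77% ± 1.01 in G1C7 and 1.58% ± 0.65 in G2C9, against 8.21% ± 1.39 in Gcontrol. No ligand share of Jag2 in a derivative library exceeded 2.83%, and none in Gcontrol was under 6.88%.

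**Figure D4:**
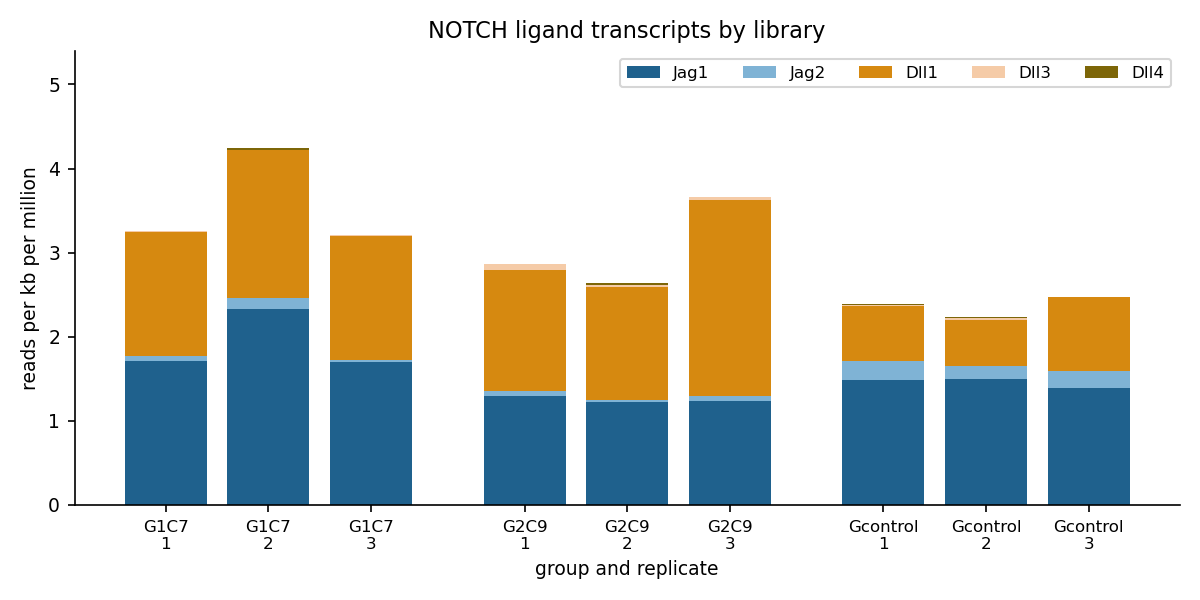
Stacked levels of the 5 NOTCH ligands in each library, in RPKM. Dll1 is larger and Jag2 smaller in each of the 6 derivative libraries than in each Gcontrol library, and Dll3 and Dll4, which did not pass the filter, are close to 0.

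Lfng (chr5:140607320-140615545, + strand), the fringe enzyme lunatic fringe, was lower in both derivatives and was called in G2C9. It had 16.4, 12.6 and 16.6 CPM in G1C7, 10.7, 9.31 and 6.74 CPM in G2C9 and 21.9, 21.9 and 23.5 CPM in Gcontrol. The 3 groups did not overlap, with G2C9 lowest and Gcontrol highest, and the libraries that stood apart were the lowest of their own groups. In G2C9 Lfng fell by 1.33 ± 0.18 on the log2 scale, 2.52-fold lower than in Gcontrol (edgeR adjusted p = 0.00246), in all 17 alternatives. In G1C7 the log2 fold change was -0.56 ± 0.18 (edgeR adjusted p = 0.0640). It was called in 5 of 17 alternatives, among them edgeR without G2C9 replicate 3 (0.0215) and without both libraries that stood apart (-0.44, adjusted p = 7.23e-05). The highest adjusted p was 0.186. Between the derivatives the log2 fold change was 0.77 ± 0.18 (edgeR adjusted p = 0.0601). It was called by DESeq2 (0.00323) and by edgeR without G1C7 replicate 2 (0.0161) and without both libraries (4.76e-06). The highest adjusted p was 0.259.

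Mfng (chr15:78755882-78773475, - strand), manic fringe, had 0 reads in all 9 libraries. That count allows up to 6 reads (3 read pairs) over a group, or 0.0368 CPM in G1C7, 0.0398 in G2C9 and 0.0364 in Gcontrol, for counting error only. Rfng, radical fringe, made up the rest, with 30.5 ± 1.44 CPM in G1C7 and 27.2 ± 1.35 CPM in G2C9, against 36.4 ± 1.74 CPM in Gcontrol (SD, n = 3 each). Rfng fell in G2C9 by 0.42 ± 0.085 (edgeR adjusted p = 0.0131), a call that was lost without G2C9 replicate 1 or 2 or Gcontrol replicate 1 or 3 (0.0540 to 0.0734), and 176 genes within 10 Mb of it had a median of -0.33. Per kb, Lfng held 33.0% ± 2.53 of fringe reads in G1C7 and 24.5% ± 5.07 in G2C9, against 38.0% ± 0.72 in Gcontrol. Fringe reads summed to 18.3 ± 1.44 RPKM in G1C7 and 14.5 ± 0.40 in G2C9, against 23.6 ± 1.02 in Gcontrol.

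Of the target genes, Hey1 was lower in both derivatives, Hes1 passed the test in neither derivative with all libraries, and Nrarp was too low to compare well. Hey1 (chr3:8663359-8667256, - strand), a repressor of the HEY family, had 2.58, 4.30 and 2.78 CPM in G1C7, 1.94, 1.43 and 2.27 CPM in G2C9 and 6.01, 5.62 and 5.86 CPM in Gcontrol. The groups did not overlap, and G1C7 replicate 2 was the derivative library nearest to Gcontrol. Hey1 fell in G2C9 by 1.63 ± 0.26 on the log2 scale, 3.10-fold lower (edgeR adjusted p = 0.00434), in all 17 alternatives. In G1C7 it fell by 0.86 ± 0.25, 1.81-fold lower (edgeR adjusted p = 0.0469). This call was close to the threshold and was lost in 6 of 9 fits that left out 1 library: G1C7 replicates 1 and 3 (0.128 and 0.127), G2C9 replicate 1 (0.0697) and Gcontrol replicates 1, 2 and 3 (0.140, 0.117 and 0.127). The call was also lost with no filter (0.0619), with a term for the replicate number (0.114) and with only these groups in the fit (0.0566). Its log2 fold change stayed between -1.12 and -0.72, and its adjusted p ranged from 2.82e-06 to 0.140. Between the derivatives the value was 0.78 ± 0.25 (edgeR adjusted p = 0.168, DESeq2 0.0447). Without both libraries that stood apart this difference was called, at 0.67 ± 0.18 (edgeR adjusted p = 0.00841).

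Hes1 (chr16:30064384-30067796, + strand), a repressor of neuronal differentiation genes, had 12.9, 9.69 and 12.9 CPM in G1C7, 10.6, 11.2 and 13.1 CPM in G2C9 and 12.8, 14.1 and 12.8 CPM in Gcontrol. The groups overlapped. The log2 fold change was -0.16 ± 0.15 in G1C7 (edgeR adjusted p = 0.493) and -0.19 ± 0.15 in G2C9 (0.468), and 158 genes within 10 Mb had medians of -0.19 and -0.20. Without both libraries that stood apart, Hes1 was called lower in G2C9 (-0.28 ± 0.081, edgeR adjusted p = 0.00786).

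Nrarp (chr2:25180758-25183339, + strand), a feedback inhibitor that binds the NOTCH intracellular domain, had 19, 26 and 25 reads in G1C7, 3, 6 and 21 in G2C9 and 19, 15 and 18 in Gcontrol. Of its 2582 exon bases, 2051 (79.4%) are shared with the annotated antisense gene Gm38287. All 2051 bases of Gm38287 are shared, so its 0 reads in all libraries follow from the counting and do not show its level. Reads in shared bases were dropped from both genes, so the Nrarp counts come from at most 531 bases and understate the level of Nrarp. The log2 fold change was 0.44 ± 0.56 in G1C7 (edgeR adjusted p = 0.641) and -0.67 ± 0.59 in G2C9 (0.527). G2C9 replicate 3 had more reads than its 2 companions together; without it Nrarp was called lower in G2C9 (-1.77, edgeR adjusted p = 0.0393, in a range of 0.0187 to 0.838) and higher in G1C7 than in G2C9 (2.20, adjusted p = 0.0415, in a range of 0.0149 to 0.769).

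Levels per kb of exon set the genes in order, with Nrarp left out because its reads come from only a part of its exon bases. In Gcontrol the order was Notch2 (22.9 ± 2.08 RPKM), Lfng (8.95 ± 0.37), Hes1 (6.50 ± 0.36), Hey1 (1.78 ± 0.060), Jag1 (1.46 ± 0.059), Notch1 (0.309 ± 0.014), Jag2 (0.195 ± 0.039) and Notch3 (0.067 ± 0.014), and no neighbours in it overlapped. In G2C9 Hes1 stood above Lfng, at 5.71 ± 0.63 against 3.56 ± 0.80, in all 3 libraries. In G1C7 their ranges overlapped, at 4.76 to 6.34 for Hes1 and 5.02 to 6.61 for Lfng. Jag1 stood above Hey1 in both derivatives, at 1.92 ± 0.36 against 0.986 ± 0.288 in G1C7 and 1.25 ± 0.036 against 0.575 ± 0.129 in G2C9 (SD, n = 3 each). Below these, Notch1 (0.058 ± 0.029) and Jag2 (0.049 ± 0.022) overlapped in G2C9.

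The rest of the pathway was read from lists of 53 further genes, of which 46 were tested. In G1C7, 5 rose and 4 fell, and in G2C9, 6 rose and 6 fell, so that 9 and 12 of 46 were called, beside 17.5% and 13.5% of all genes tested. Between the derivatives 1 was higher and 1 lower in G1C7, beside 3.36% of all genes. The median log2 fold changes were 0.025, -0.0082 and 0.027, close to those of all genes. Without both libraries that stood apart the counts were 16 and 13, 13 and 16, and 13 and 6 (higher and lower), beside 54.3%, 53.0% and 27.3% of all genes called in either direction.

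The nuclear complex held 4 of the calls in G1C7 and 3 in G2C9, of 9 genes tested, beside 17.5% and 13.5% of all genes. Rbpj, which encodes the DNA-binding protein of the pathway, had 639, 668 and 635 CPM in G1C7, 652, 669 and 597 CPM in G2C9 and 442, 454 and 451 CPM in Gcontrol. It rose by 0.53 ± 0.080 in G1C7 (edgeR adjusted p = 0.00321) and by 0.51 ± 0.080 in G2C9 (0.00429) on the log2 scale. The Mastermind coactivators split: Maml2 rose by 1.08 ± 0.10 in G1C7 (edgeR adjusted p = 0.000364) and 1.27 ± 0.10 in G2C9 (0.000209), to 89.7 ± 2.57 and 103 ± 12.1 CPM, against 42.5 ± 1.92 CPM in Gcontrol. Maml1 fell to 50.5 ± 0.45 CPM in G1C7 and 46.9 ± 2.30 CPM in G2C9, against 70.3 ± 2.27 CPM in Gcontrol (log2 fold change -0.48 and -0.58, edgeR adjusted p = 0.00355 and 0.00171). In G1C7 and G2C9, 178 genes within 10 Mb of Maml1 had medians of -0.21 and -0.36. For 120 genes within 10 Mb of Maml2 the medians were 0.26 and 0.11. The calls of Rbpj, Maml1 and Maml2 stood in 9 of 9 fits that left out 1 library. Kat2b, a histone acetyltransferase, rose in G1C7 by 0.74 ± 0.16 (edgeR adjusted p = 0.0133), a call lost without any of the 3 Gcontrol libraries (0.0504 to 0.0602), and 135 genes within 10 Mb of it on chromosome 17 had a median of 0.43.

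Notch4, the remaining receptor and best known in endothelium, had 0.281, 0.419 and 0.146 CPM in G1C7, 0.158, 0.347 and 0.703 CPM in G2C9 and 3.18, 3.75 and 3.28 CPM in Gcontrol. It fell by 3.58 ± 0.54 in G1C7 (edgeR adjusted p = 0.00315) and by 3.07 ± 0.52 in G2C9 (0.00645), in 9 of 9 fits that left out 1 library for each. The 6 endothelial markers summed to 1.55 to 1.72 CPM in G1C7, 3.80 to 4.75 CPM in G2C9 and 1.02 to 1.35 CPM in Gcontrol, with Tie1 and Cldn5 at 0 reads in every library. These sums were higher in all 6 derivative libraries than in Gcontrol. Cdh5 was the largest part of each, at 0.856 to 1.27 CPM in G1C7, 3.29 to 3.78 in G2C9 and 0.617 to 0.795 in Gcontrol. The ranges of Pecam1, Tek and Kdr overlapped between each derivative and Gcontrol. The part of these markers in the Notch4 result was not tested.

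Poglut1, a glucosyltransferase that modifies NOTCH receptors, had 29.1, 21.4 and 30.6 CPM in G1C7, 10.4, 10.6 and 12.4 CPM in G2C9 and 51.8, 49.4 and 49.3 CPM in Gcontrol. It fell by 0.89 ± 0.14 in G1C7 (edgeR adjusted p = 0.00393) and 2.17 ± 0.15 in G2C9 (0.000136), and was higher in G1C7 than in G2C9 by 1.28 (0.00246). Adam17, a protease that can cleave NOTCH receptors, fell in G1C7 by 0.52 ± 0.074 (edgeR adjusted p = 0.00231), and 67 genes within 10 Mb of it had a median of -0.45. Neurl1b, a ubiquitin ligase that acts on Delta ligands, rose in G1C7 by 1.40 ± 0.16 (edgeR adjusted p = 0.00111), and 384 genes within 10 Mb of it had a median of 0.37. Poglut1, Adam17 and Neurl1b kept these calls in 9 of 9 fits that left out 1 library.

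Other calls of the lists were less stable. Adam17 was lower in G1C7 than in G2C9 by a log2 fold change of -0.38 (edgeR adjusted p = 0.0272), which was lost without any library but G1C7 replicate 2 or G2C9 replicate 3 (0.0627 to 0.120). In G2C9, Neurl1b was higher by 0.72 (edgeR adjusted p = 0.0212), lost without replicate 1 or 2 of G2C9 or of Gcontrol (0.0591 to 0.0949). Eogt, another glycosyltransferase, was higher by 0.39 (edgeR adjusted p = 0.0220), lost without G2C9 replicate 1 or 2 or any Gcontrol library (0.0718 to 0.106). Aak1 (0.41), Dtx2 (-0.31) and the target gene Myc (-0.33) were called in G2C9 at an edgeR adjusted p of 0.0477, 0.0486 and 0.0499, and in 2, 1 and 1 of the 9 fits that left out 1 library. The calls stood only without G1C7 replicate 2 for all 3 genes and, for Aak1, also without G2C9 replicate 3; elsewhere the adjusted p ran up to 0.173, 0.190 and 0.162. No other target or HES gene was called in either derivative with all libraries, among 8 tested. Without both libraries that stood apart, 4 of these 8 were called higher and 1 lower in G1C7, beside 54.3% of all genes, and 2 higher and 3 lower in G2C9, beside 53.0%.

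**Figure D5:**
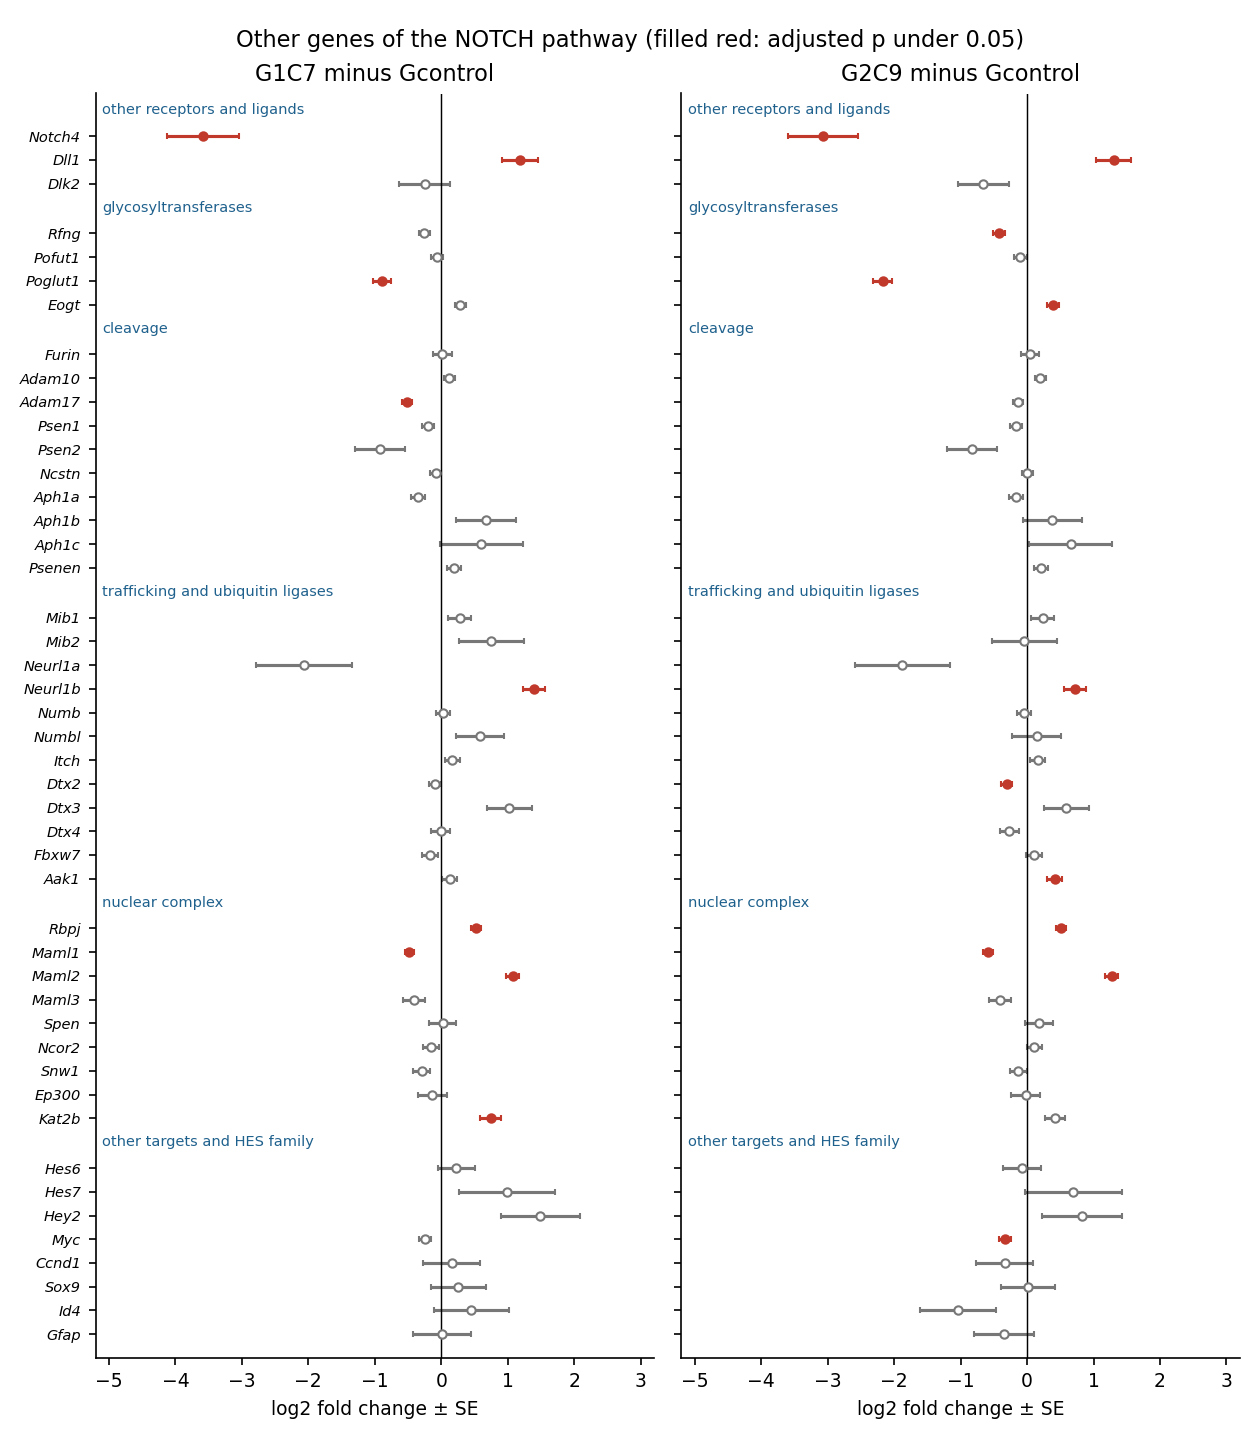
Log2 fold changes with their SE from the edgeR fit for the 46 further NOTCH pathway genes that passed the filter, by list, for G1C7 minus Gcontrol (left) and G2C9 minus Gcontrol (right), with filled red symbols at an adjusted p under 0.05. Notch4, Poglut1 and Maml1 lie left of 0 and Dll1, Neurl1b, Rbpj and Maml2 right of 0 in both panels.

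For each tested NOTCH gene, the genes with the most similar profile over the 9 libraries were found by the root-mean-square difference of centred log2(CPM + 1) values among 10991 protein-coding genes. Libraries share groups and the splits described above, so likeness is a description. For Notch1 they were Chst1 (difference 0.17, beside a spread of 0.73 of Notch1 itself) and Slc9a2 (0.20). For Notch2 they were Kidins220 (0.10, beside 0.31) and Cdon (0.10). For Notch3 they were Cfap100 (0.27, beside 1.23) and Galnt16 (0.28). Hey1 was nearest to Zfp647 (0.10, beside 0.54) and Lgals8 (0.13), and Lfng to Kalrn (0.10, beside 0.55). Jag1 was nearest to Supt3 and Rxrb, Jag2 to Adra1d and Eepd1, Hes1 to Gpn2 and Trp53rkb, and Nrarp to Coro1b and Ptms, at 0.052 to 0.12 beside spreads of 0.15 to 0.41. Nrarp (0.0594 to 0.473 CPM) and Jag2 (0.163 to 1.61 CPM) are low. The 1 added to CPM flattens their profiles, so their matches say little.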

How the data were processed

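The deposited values are raw counts of reads per gene, which per the file headers the authors made with featureCounts 1.6.0 on the GENCODE vM25 annotation of GRCm38. FastQC 0.11.8, STAR 2.6.1c, edgeR and limma are named in the submitters' processing notes. The library kit was stranded and reads were paired, per the labels' protocols, but no option for pairs, strand, multi-mapping reads or overlapping genes appears in the headers of the 9 files. The 2 mates of a pair therefore count as separate reads on either strand, and reads that map to several places or to bases of more than 1 gene are missing. Even values made up 74.1% to 75.6% of the counts of 2 to 50, so 3 read pairs are taken as 6 reads. Symbols, lengths and positions came from the files and from GENCODE vM21, which held 55141 of the 55401 gene IDs.

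Libraries were grouped by the label of the derivative. CPM (counts scaled to 1000000 reads) used TMM factors (0.978 to 1.03). A quasi-likelihood model was fitted to the 9 libraries together with edgeR 4.0.16 in R 4.3.3, with filterByExpr and robust dispersion (6 residual degrees of freedom, common biological coefficient of variation 0.248). SEs were derived by dividing the size of the log2 fold change by the root of its F statistic. RPKM used CPM and the exon length in the files. The procedure was tested on simulated data. Alternatives were RLE factors, other filters, DESeq2 1.42.0, limma-voom (limma 3.58.1), a replicate block, only the groups compared, each library left out and, chosen after seeing the data, both libraries that stood apart left out; the closing section gives their effect. The text names all 10 genes, up to 3 called genes per direction from each further list, and the nearest 2 genes by profile, of which 1 is not reported here. Members, lists and the 75 Mb boundary were chosen with earlier results of these data known.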

Additional observations from a re-analysis of the deposited data

Results flagged for a closer look

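The derivatives differed from each other in Notch1, with a log2 fold change of 2.23 for G1C7 minus G2C9, and in Notch2, with -0.64. Both differences were tested directly in the fit over all 9 libraries. Notch1 had 3.89 ± 0.271 CPM in G1C7 and 0.824 ± 0.407 CPM in G2C9, and Notch2 had 168 ± 18.3 CPM in G1C7 and 262 ± 28.2 CPM in G2C9 (SD, n = 3 each). The Notch1 difference stood without each library in turn, and the Notch2 difference did not, as given above with the libraries that decide it.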

How the results depend on the processing

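Of the values of single NOTCH genes under the alternatives, 385 kept their direction and side of the threshold, 22 lost a call, 31 gained one and 15 turned. The calls of Notch1, Hey1 and Lfng in G2C9 stood in all. The counts of NOTCH genes called moved in G1C7 with no filter (1), DESeq2 (4), limma-voom (4), without both libraries that stood apart (6) and over the fits that left out 1 library (0 to 3); in G2C9 without both (6; leaving out 1 library, 3 to 4); and between the derivatives with DESeq2 (5), without both (7), with only these groups (0) and leaving out 1 library (1 to 4). At an unadjusted p under 0.05, edgeR gave 3 to 4 genes in the G1C7 fits with 0 calls and 5 in the fit of only the derivatives. All genes called in G1C7 numbered 8581 without both (2730 of the original 2740 among them) and 1181 to 4133 leaving out 1 library. In G2C9 they numbered 3190 with DESeq2, 3212 with only these groups, 8383 without both (2108 of 2109 among them) and 878 to 4113 leaving out 1 library. Between the derivatives they numbered 1267 with DESeq2, 80 with only these groups, 4320 without both (526 of 526 among them) and 186 to 1286 leaving out 1 library. Same-numbered libraries deviated together in 1 of 9 pairs (correlation -0.557 to 0.409). Between the derivatives these correlations follow the libraries that stood apart (G1C7 replicate 2 with G2C9 replicate 3, 0.677). They therefore cannot settle whether equal numbers share a batch. The labels do not tie equal numbers together, so the main fit held no block. With the replicate block as a term the counts were 1532, 1114 and 164 over all genes and 0 and 1 NOTCH genes in G1C7 and between the derivatives (5 at an unadjusted p under 0.05 in G1C7). Notch3 turned in G1C7 with limma-voom (-1.48), without replicate 2 (-4.16) and without both (-4.17); in G2C9 without replicate 3 (-0.20) and without both (-0.21); and between the derivatives with limma-voom (-2.16), with the block (-0.17), without G1C7 replicate 2 (-6.27) and without both (-3.96). Between the derivatives, Jag2 turned without G1C7 replicate 2 (-0.30) and without both (-0.11). Hes1 turned without G1C7 replicate 1 or 3 (-0.043 and -0.044), G2C9 replicate 1 (-0.034) or replicate 2 (-0.014). Leaving out 1 library, Notch3 ranged from -4.16 to 3.46 in G1C7, from -0.20 to 2.66 in G2C9 and from -6.27 to 3.08 between the derivatives, where Jag2 ranged from -0.30 to 0.81 and Hes1 from -0.044 to 0.15. Where values turned without 1 library or both, that library carried the earlier sign by construction; other causes were not tested. No scaling moved the median of all genes by over 0.1 on the log2 scale. Notch3 and Nrarp were not tested at 1 CPM or more in 3 libraries. Depth limits Notch3, Nrarp and Jag2, which had 0 to 655, 3 to 26 and 8 to 87 reads per library.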
